A study of Mus musculus with 37 samples.

Results

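The genes described here are 10 genes of the NRF2 antioxidant and glutathione system: Nfe2l2, Nqo1, Hmox1, Gclc, Gclm, Gsr, Txnrd1, Srxn1, Gpx2 and Gstm1. They were found by their symbols in the count tables of 3 RNA-seq experiments on murine jejunal organoids, which hold 27407, 20500 and 27547 genes. NRF2, the protein of Nfe2l2, is a transcription factor that KEAP1 marks for degradation in unstressed cells. Oxidants and electrophiles release NRF2 from KEAP1, and it then binds antioxidant response elements together with small MAF proteins. Its known targets make glutathione, keep thiols reduced and detoxify quinones, peroxides and electrophiles, and the intestinal epithelium uses them against dietary and inflammatory oxidants and after irradiation (IR).

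The experiments asked what vasoactive intestinal peptide (VIP), a peptide of enteric neurons, does to organoid gene expression, and whether its effect differs after IR. In the first experiment, whole organoids of C57Bl6/J mice received 100 nM VIP for 72 h (4 mice) or no treatment (3 of these mice). In the second, Lgr5-EGFP+ cells were sorted from organoids of Lgr5-EGFP-IRES-CreERT2 mice after 72 h with 100 nM VIP or without treatment (4 mice each). In the third, Lgr5-EGFP+ cells were sorted from untreated or VIP-treated organoids (100 nM, 48 h) with 6 Gy IR or without IR, 4 mice in each of the 4 groups. By the study's description IR came first and VIP was added after it, so the samples with both were irradiated before VIP was given, and the effect of IR with VIP compares them with samples given VIP alone. The mice were male and female and 6 to 12 weeks old. Every group was cultured in a growth medium with N-acetylcysteine, itself a precursor of glutathione. The EGFP of these mice is expressed from the Lgr5 locus, which marks intestinal stem and progenitor cells. The replicates are the mice, and a mouse carries the same number in each group of an experiment.

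To show where NRF2 could bind near these genes, the promoter windows of RefSeq (GRCm38.p6, 250 bases before to 50 bases after a gene's start) were searched for the core antioxidant response element TGACNNNGC on both strands. Windows were found for 7 of the 10 genes, and 4 of these 7 genes had a match, Nfe2l2, Gclm, Txnrd1 and Srxn1. Counted by gene this is 57.1%, against 14% of all 27025 genes with a window and 22.1% of the 86 other genes of the pathway described further on. Counted by window, 4 of the 10 windows of the members had a match, against 12.4% of all 32851 windows and 18.5% of the 119 windows of the other pathway genes. In the 250 bases before the start alone, 3 of the 7 genes had a match (42.9%). The shares there were 11.5% of all genes and 18.6% of the other pathway genes. Nqo1, Gpx2 and Gstm1 had no match in their windows, and Hmox1, Gclc and Gsr had no window. A match is a description of the letters and not a bound site. Sites outside the window were not searched, so no match in it does not mean that the gene has no site. The 4 matches are shown on the strand of the gene, 5′ to 3′, with the matching letters in capitals. The match of Nfe2l2 reads TGACNNNGC in this direction, and the other 3 read as its reverse complement.
Nfe2l2: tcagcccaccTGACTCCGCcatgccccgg
Gclm: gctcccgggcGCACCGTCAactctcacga
Txnrd1: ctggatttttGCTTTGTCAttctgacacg
Srxn1: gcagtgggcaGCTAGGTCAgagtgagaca
The Nfe2l2 sequence lies on the minus strand at chr2:75704885-75704913, centred 236 bases before the start of the gene. The Gclm sequence is on the plus strand at chr3:122245413-122245441, 130 bases before the start. The Txnrd1 sequence is on the plus strand at chr10:82859104-82859132, 88 bases before the start in 1 of the 3 promoter windows of this gene. The Srxn1 sequence is on the plus strand at chr2:152105542-152105570, and its centre is 32 bases after the start.

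All 10 genes are protein-coding genes in GENCODE M21 (GRCm38). Gpx2 is at chr12:76792333-76795554 on the minus strand, Gclc at chr9:77754535-77794485 on the plus strand, Gstm1 at chr3:108012255-108017973 on the minus strand, and Nqo1, Gsr and Hmox1 are on chromosome 8. The values are counts of unique molecular identifiers (UMIs), so that amplified copies of 1 captured transcript end are counted once, and levels are given as CPM, UMI counts scaled to the total of the sample. Whole organoids had 3722716 to 6330404 UMIs per sample, the sorted cells of the second experiment 575242 to 1104126, and those of the third 1075715 to 1876729. Of the 10 genes, 9 had enough counts for the filter of edgeR in every comparison. Hmox1, the haem-degrading enzyme, did not pass, with 4 to 24 UMIs per sample in whole organoids, 0 to 7 in the second experiment and 2 to 11 in the third. It was at 0 UMIs in 4 of the 8 samples of the second experiment, which allows levels of up to 4.93 to 5.22 CPM (3 counts of the total, counting error only).

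Marker genes of stem cells were detected in full, 8 of 8 in every sorted sample and in every sample of whole organoids. They summed to 4311 to 7114 CPM in the second experiment and 2584 to 5849 CPM in the third. In whole organoids the sums were 2132 to 4494 CPM, which overlaps the third experiment, and enrichment of stem cells by the sort was not tested. Paneth cell markers were also at high levels in the sorted cells. Their sums were 8433 to 27303 CPM in the third experiment and 11959 to 21099 CPM in whole organoids. Immune markers summed to at most 11.3 CPM, and markers of fibroblasts and endothelium to at most 3.20 CPM. In whole organoids, mouse 3 stood apart. The 2 technical libraries of its VIP-treated culture correlated with r = 0.9319 across genes, against 0.9802 to 0.9870 for the other 5 pairs of technical libraries. The second of them was as close to the libraries of untreated mouse 1 (r = 0.9814 and 0.9813) as those were to each other (0.9806), so that its identity is in doubt, and with it the values of VIP-treated mouse 3, which are sums of both libraries. The members were among the genes that differed between them, so the whole organoid fold changes of the members are given with and without these libraries. A fit without the first library represents VIP-treated mouse 3 by the doubtful second library alone. In bulk samples, fewer cells of a type and less RNA per cell cannot be told apart.

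The largest set of changes was seen between organoids given IR and then VIP and organoids given VIP alone. With IR, 5 of the 9 tested genes were higher in the VIP-treated Lgr5-EGFP+ cells (adjusted p of 0.05 or less, edgeR's quasi-likelihood test with the mouse as a block and Benjamini-Hochberg adjustment over 9976 genes): Nfe2l2, Gclc, Txnrd1, Srxn1 and Gpx2. None of the 9 was lower at this threshold. Of all genes tested, 4.41% were higher. The median log2 fold change was 0.33 over the 9 genes and 0.00 over all genes. Of the 9, 7 had an unadjusted p under 0.05, as did 2168 of all 9976 genes.

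Nfe2l2, which encodes NRF2 itself, was at 176, 185, 173 and 181 CPM in VIP-treated cells of mice 1 to 4 without IR. After IR it was at 219, 211, 228 and 226 CPM, and the groups did not overlap. The log2 fold change was 0.30 (SE 0.08, 95% interval 0.15 to 0.45, adjusted p = 0.00661), higher in 4 of 4 mice. The call was lost without mouse 3 (0.28, adjusted p = 0.0611) and without mouse 4 (0.30, adjusted p = 0.0505).

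The genes of glutathione synthesis were next examined. Gclc and Gclm encode the catalytic and the modifier subunit of glutamate-cysteine ligase, the rate-limiting enzyme of glutathione synthesis. Gclc was at 40.6, 37.3, 50.5 and 34.1 CPM in VIP-treated cells without IR and at 57.0, 72.7, 55.9 and 46.9 CPM after IR. The groups overlapped, since mouse 3 was already high without IR, but each mouse was higher after IR. The log2 fold change was 0.49 (SE 0.15, 95% interval 0.20 to 0.79, adjusted p = 0.0240). Without mouse 1, 2 or 4 the adjusted p was 0.0622, 0.215 and 0.0701, and with DESeq2 0.108. Gclm was at 146, 163, 160 and 164 CPM without IR and at 176, 195, 193 and 181 CPM after IR. Its groups did not overlap, yet the log2 fold change of 0.22 (SE 0.08, 95% interval 0.06 to 0.39) did not pass the threshold (adjusted p = 0.0812). It passed when genes under 10 counts in any sample were dropped (adjusted p = 0.0460).

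Gsr, Txnrd1 and Srxn1 encode enzymes that return oxidised thiols to the reduced state, namely glutathione reductase, the cytosolic thioredoxin reductase, and sulfiredoxin, which repairs overoxidised peroxiredoxins. Srxn1 was at 23.3, 26.9, 29.4 and 41.4 CPM without IR and at 45.3, 44.0, 52.4 and 55.0 CPM after IR. Its log2 fold change of 0.69 (SE 0.15, 95% interval 0.39 to 1.0, adjusted p = 0.00184) was the largest of the 9 genes in this comparison. All samples after IR were above all samples without IR, with mouse 4 the highest in each group. Txnrd1 was at 99.1, 72.4, 88.2 and 78.0 CPM without IR and at 117, 147, 108 and 135 CPM after IR. Its groups did not overlap either, and the log2 fold change was 0.57 (SE 0.11, 95% interval 0.34 to 0.80, adjusted p = 8.81e-04). The within-mouse difference of Txnrd1 varied from 0.21 in mouse 1 to 0.99 in mouse 2. Gsr was at 456, 439, 378 and 427 CPM without IR and at 391, 374, 449 and 446 CPM after IR. It was lower in mice 1 and 2 and higher in mice 3 and 4, with a log2 fold change of −0.04 (95% interval −0.21 to 0.13).

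Among the enzymes that use glutathione, Gpx2, the glutathione peroxidase of the gastrointestinal epithelium, had the smallest p of the members. It was at 1775, 1981, 2247 and 2166 CPM in VIP-treated cells without IR and at 2569, 2715, 2898 and 2898 CPM after IR. The groups were well separated, and the within-mouse differences of 0.51, 0.44, 0.36 and 0.43 (log2 CPM) were close to each other. The log2 fold change was 0.43 (SE 0.05, 95% interval 0.32 to 0.54, adjusted p = 1.53e-07). Gstm1, a mu-class glutathione S-transferase, was at 293, 312, 370 and 333 CPM without IR and at 351, 329, 408 and 312 CPM after IR, with a log2 fold change of 0.09 (95% interval −0.23 to 0.41). Gstm1 has near-identical paralogs among the Gstm genes, so its counts are uncertain.

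Nqo1 and Hmox1 encode a quinone reductase and the inducible haem oxygenase, commonly used readouts of NRF2 activity. Nqo1 was at 49.6, 61.9, 63.3 and 64.6 CPM without IR and at 62.3, 76.7, 82.4 and 80.8 CPM after IR. It was higher in 4 of 4 mice, by 0.29 to 0.37 on the log2 scale, with mouse 1 the lowest in each group. The log2 fold change of 0.33 (SE 0.12, 95% interval 0.09 to 0.57) did not pass the threshold (adjusted p = 0.0762), and like Gclm it passed when genes under 10 counts in any sample were dropped (adjusted p = 0.0496). Hmox1 had 2, 5, 5 and 3 UMIs without IR and 7, 3, 10 and 5 UMIs after IR, which is too few for a test.

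**Figure D1:**
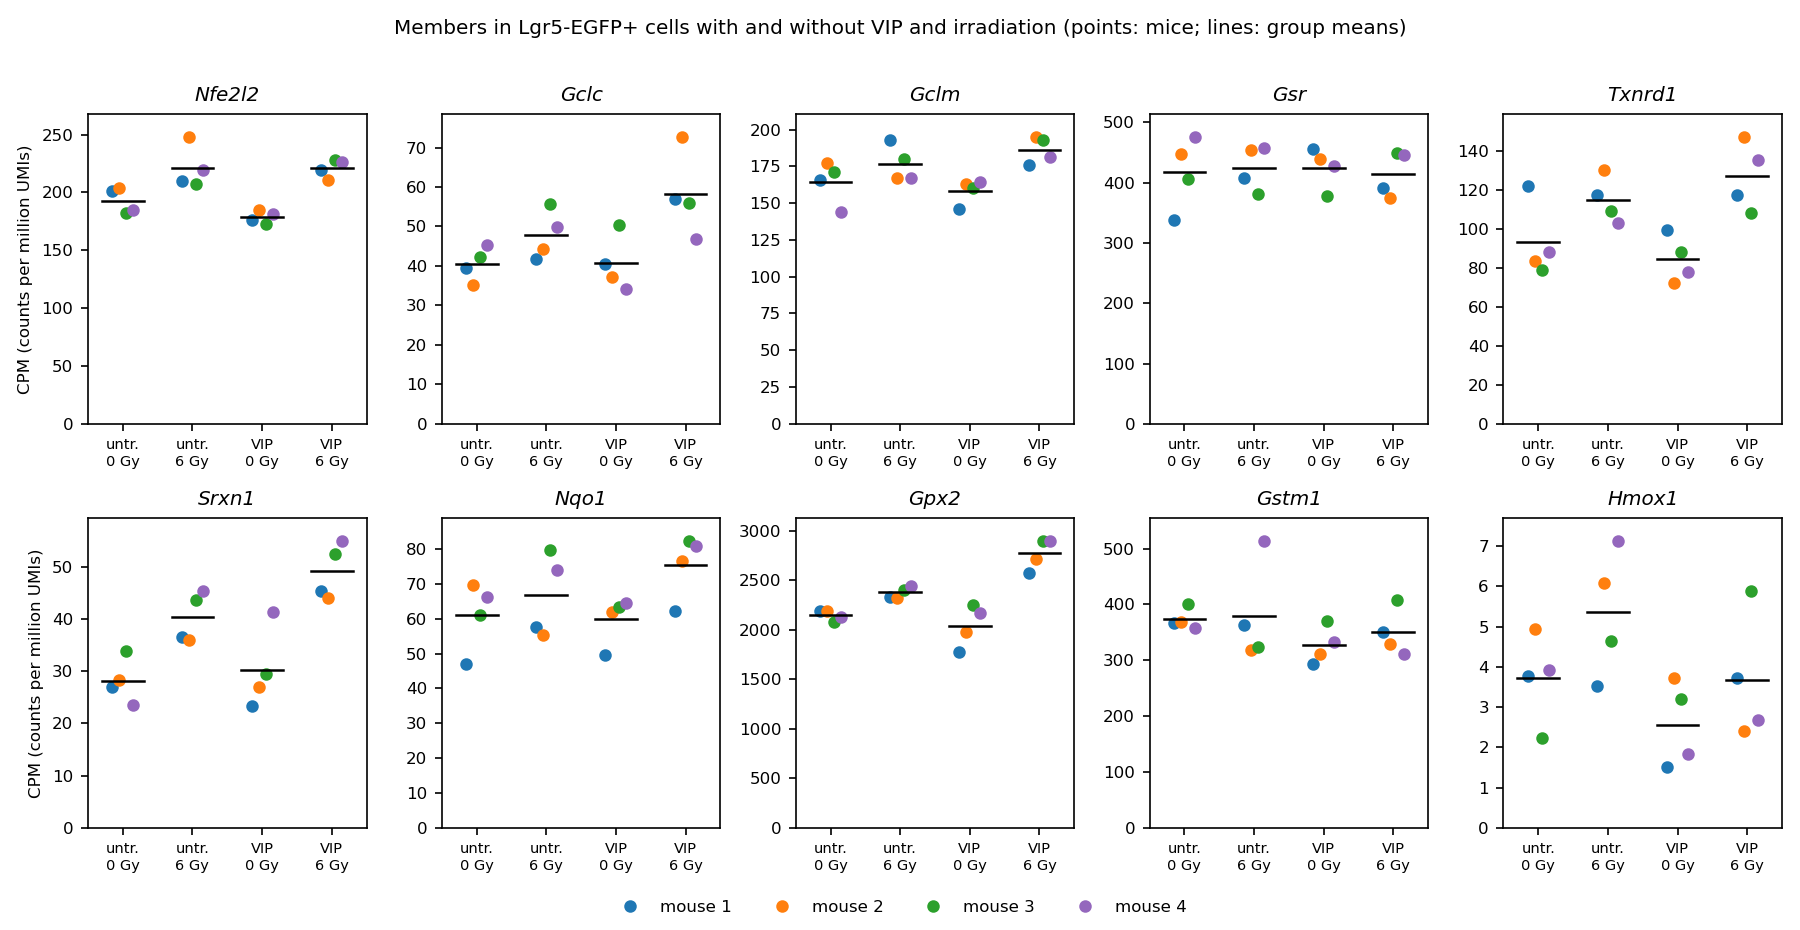
Level of the 10 genes in Lgr5-EGFP+ cells of the third experiment, in CPM on linear axes that start at 0, for untreated and VIP-treated organoids without IR (0 Gy) and after IR (6 Gy). Each point is 1 mouse and each line the mean of 4 mice; Gpx2 lies at 1775 to 2247 CPM with VIP alone and at 2569 to 2898 CPM with VIP and IR, while Gsr and Gstm1 overlap in every group.

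Markers of other cell types and of the IR response moved together with these values. In VIP-treated cells the summed level of the 10 p53 target genes was 339 to 462 CPM without IR and 1122 to 1302 CPM after IR, without overlap between the groups. The 8 Paneth cell markers summed to 8433 to 9774 CPM without IR and 14713 to 16891 CPM after IR, the 7 enteroendocrine markers to 1464 to 3343 and 3868 to 5889 CPM, and the 8 stem cell markers to 5410 to 5849 and 3210 to 3832 CPM. The 7 goblet cell markers (4822 to 5335 and 6525 to 8397 CPM) and the 10 enterocyte markers (1380 to 1736 and 1801 to 2025 CPM) did not overlap either. All genes of these lists were detected in every sample, apart from the enterocyte markers, of which 9 or 10 were detected. Their part in the change of the NRF2 genes was not tested.

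The same question was asked of untreated organoids. In untreated Lgr5-EGFP+ cells, 0 of the 9 tested genes passed the threshold after IR, where 4.50% of all genes did, and DESeq2 also called 0. All 9 had a positive log2 fold change, with a median of 0.15 against −0.00 over all genes. An unadjusted p under 0.05 was found for 4 of the 9 and for 1663 of all 9976 genes. These 4 were Srxn1, Gpx2, Txnrd1 and Nfe2l2, which are among the 5 genes called in the VIP-treated cells.

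Srxn1 was at 27.0, 28.4, 33.9 and 23.6 CPM in untreated cells without IR and at 36.5, 36.0, 43.7 and 45.4 CPM after IR. The groups did not overlap, and the log2 fold change of 0.51 (SE 0.16, 95% interval 0.19 to 0.83, adjusted p = 0.0540) missed the threshold narrowly. Gpx2 was at 2193, 2189, 2080 and 2132 CPM without IR and at 2335, 2324, 2406 and 2446 CPM after IR. These groups did not overlap either, with a log2 fold change of 0.15 (SE 0.05, 95% interval 0.04 to 0.26, adjusted p = 0.104). Txnrd1 was at 122, 83.3, 78.9 and 87.8 CPM without IR and at 117, 130, 109 and 103 CPM after IR. Mouse 1 was the highest without IR and was no higher after it, and the other mice were higher by 0.27 to 0.60 on the log2 scale, so that the fold change was 0.32 on the log2 scale (SE 0.12, edgeR adjusted p = 0.116). Nfe2l2 was at 201, 204, 182 and 185 CPM without IR and at 210, 248, 207 and 219 CPM after IR, higher in 4 of 4 mice with a fold change of 0.20 on the log2 scale (SE 0.07, adjusted p = 0.12). Without mouse 1, Gpx2 (adjusted p = 0.0212), Nfe2l2 (0.0405) and Txnrd1 (0.00963) passed the threshold. With genes of at least 10 counts in every sample, Srxn1 (0.0445) and Gpx2 (0.0492) passed.

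The remaining members had an unadjusted p above 0.05 in untreated cells. Gclc was at 39.6, 35.2, 42.3 and 45.2 CPM without IR and at 41.8, 44.3, 55.8 and 49.9 CPM after IR, a log2 fold change of 0.23 (95% interval −0.07 to 0.53). Gclm had a log2 fold change of 0.11, Nqo1 of 0.12, Gsr of 0.04 and Gstm1 of 0.02, and each of their groups overlapped. Hmox1 had 6, 8, 4 and 6 UMIs without IR and 6, 11, 5 and 8 UMIs after IR. In these cells the p53 targets summed to 472 to 640 CPM without IR and 1079 to 1349 CPM after IR, the Paneth cell markers to 9928 to 14717 and 14824 to 27303 CPM, the enteroendocrine markers to 2083 to 2880 and 3682 to 5570 CPM, and the stem cell markers to 3546 to 4557 and 2584 to 2950 CPM. None of these groups overlapped, and the part of the markers was not tested.

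Because 5 genes passed in VIP-treated cells and 0 in untreated cells, the difference between these effects was tested as the interaction of VIP and IR. In edgeR 0 of the 9 members passed, as did 0% of all 9976 genes, with 610 genes at an unadjusted p under 0.05, 1 of them a member, and DESeq2 also called 0 genes. A greater effect of IR with VIP than without it was therefore not shown. The interaction was positive for 8 of the 9 genes, with a median of 0.18 against 0.01 over all genes. Gpx2 had the smallest p, with an interaction of 0.28 on the log2 scale (SE 0.08, 95% interval 0.13 to 0.44, adjusted p = 0.529), and it was positive in 4 of 4 mice. The intervals of Gclc (−0.16 to 0.69), Txnrd1 (−0.08 to 0.58) and Srxn1 (−0.26 to 0.63) include both no difference and differences as large as the IR effect in untreated cells. The comparisons of the third experiment share samples, so their values are not independent of each other.

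**Figure D2:**
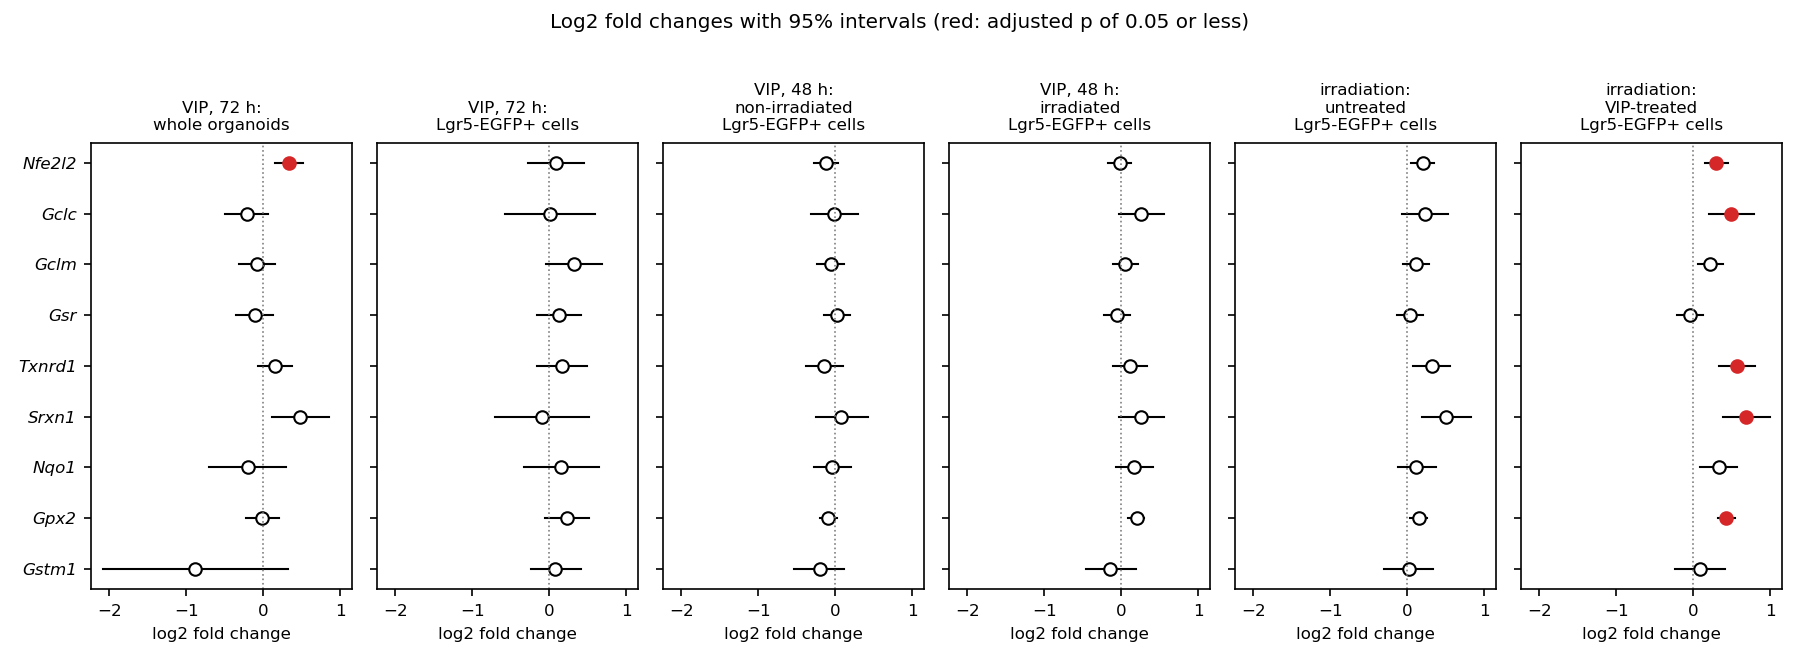
Log2 fold change of the 9 tested genes in the 6 comparisons, with lines for the 95% interval of the edgeR fit. Filled red points have an adjusted p of 0.05 or less; they are Nfe2l2 in whole organoids with VIP, and Nfe2l2, Gclc, Txnrd1, Srxn1 and Gpx2 with IR and then VIP against VIP alone.

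The effect of VIP was next compared in irradiated and non-irradiated cells. In irradiated Lgr5-EGFP+ cells, 0 of 9 members passed with VIP, where 0.190% of all genes did, and DESeq2 called 0 of them. Gpx2 alone of the 9 had an unadjusted p under 0.05, against 556 of all 9976 genes. It was at 2335, 2324, 2406 and 2446 CPM after IR alone and at 2569, 2715, 2898 and 2898 CPM after IR with VIP. The groups did not overlap, and all 4 mice were higher with VIP, with a log2 fold change of 0.20 (SE 0.05, 95% interval 0.09 to 0.30, adjusted p = 0.207). In a fit on the 8 irradiated samples alone, its adjusted p was 0.0347. Between the same groups the stem cell markers summed to 2584 to 2950 CPM after IR alone and 3210 to 3832 CPM after IR with VIP, and the enterocyte markers to 2039 to 3702 and 1801 to 2025 CPM, without overlap, and their part in the Gpx2 values was not tested. Srxn1 was likewise higher in 4 of 4 mice, by 0.21 to 0.30 on the log2 scale, with a log2 fold change of 0.26 (95% interval −0.03 to 0.56, adjusted p = 0.946). Gclc also had a log2 fold change of 0.26, but it was higher in mice 1 and 2 and lower in mice 3 and 4. Nfe2l2 (−0.02), Gclm (0.05), Gsr (−0.05), Txnrd1 (0.11), Nqo1 (0.17) and Gstm1 (−0.14) had intervals that include 0.

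In non-irradiated cells of the same experiment, VIP for 48 h gave 0 of 9 members past the threshold, 0 of 9 at an unadjusted p under 0.05, and 0 with DESeq2, while 1.10% of all genes passed. The log2 fold changes lay between −0.20 for Gstm1 and 0.08 for Srxn1, with a median of −0.06. Nfe2l2 was at 201, 204, 182 and 185 CPM without and at 176, 185, 173 and 181 CPM with VIP. It was thus slightly lower in 4 of 4 mice (log2 fold change −0.12, 95% interval −0.27 to 0.04, adjusted p = 0.591). Gpx2 ranged from 2080 to 2193 CPM without and from 1775 to 2247 CPM with VIP (log2 fold change −0.09, 95% interval −0.20 to 0.02). The intervals for Nfe2l2 and Gpx2 do not extend to increases of more than 0.04 on the log2 scale. Marker sums that did not overlap between these groups were those of stem cells (3546 to 4557 CPM without and 5410 to 5849 CPM with VIP), Paneth cells (9928 to 14717 and 8433 to 9774 CPM), enterocytes (1757 to 2292 and 1380 to 1736 CPM) and p53 targets (472 to 640 and 339 to 462 CPM). Their part in the values of the members was not tested.

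The levels across the 4 groups of the third experiment can be put in order. Gpx2 was lowest with VIP alone (2042 ± 210 CPM, SD, n = 4), followed by no treatment (2148 ± 53.5), IR alone (2378 ± 58.2) and IR with VIP (2770 ± 159). The lowest 2 of these groups overlapped. Srxn1 followed the order no treatment (28.2 ± 4.29), VIP alone (30.2 ± 7.84), IR alone (40.4 ± 4.85) and IR with VIP (49.2 ± 5.36), in which neighbours overlapped. Txnrd1 had the order VIP alone (84.4 ± 11.8), no treatment (93.0 ± 19.7), IR alone (115 ± 11.7) and IR with VIP (127 ± 17.6), again with overlap between neighbours. Nfe2l2 was at 179 ± 5.32 CPM with VIP alone and at 193 ± 11.1 without treatment, and IR alone (221 ± 18.7) and IR with VIP (221 ± 7.70) could not be ordered. Gsr stayed between 415 and 425 CPM in the mean of every group, less than the SD of any of them apart.

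In the second experiment, 72 h of VIP without IR gave no call among the members in Lgr5-EGFP+ cells (0 of 9 in edgeR, 0 at an unadjusted p under 0.05, 0 in DESeq2), and only 0.0738% of all genes passed. The counts were lower here, with 12 to 28 UMIs for Gclc in untreated cells, and the intervals were wider. Gpx2 was at 2362, 1625, 2502 and 1817 CPM without and at 3138, 1923, 3037 and 2032 CPM with VIP. It was higher in 4 of 4 mice, but by unequal amounts of 0.46, 0.28, 0.12 and 0.08 (log2 CPM). The log2 fold change of 0.23 (SE 0.14, 95% interval −0.05 to 0.52, adjusted p = 0.920) did not pass. Gclm was at 79.3, 84.4, 98.6 and 89.0 CPM without and at 129, 71.3, 140 and 119 CPM with VIP, higher in 3 of 4 mice (log2 fold change 0.32, 95% interval −0.04 to 0.69, adjusted p = 0.898). Nqo1 was at 85.1 CPM in VIP-treated mouse 1 and at 28.5 to 55.9 CPM in the other 7 samples. The log2 fold changes of the other members lay between −0.09 (Srxn1) and 0.17 (Txnrd1). The interval of Gclc (−0.58 to 0.59) includes its fold change of 0.49 with IR in VIP-treated cells, and that of Srxn1 (−0.70 to 0.52) includes the 0.51 of untreated cells but not the 0.69 of VIP-treated cells. Hmox1 had 0, 7, 0 and 6 UMIs without and 1, 0, 0 and 2 UMIs with VIP.

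In whole organoids, the libraries of mouse 3 have to be described before the comparison. The untreated culture of mouse 3 had Gstm1 at 2422 CPM against 622 and 625 CPM in mice 1 and 2, Gpx2 at 1701 against 908 and 639 CPM, Nqo1 at 131 against 63.6 and 55.3 CPM, and Gclc at 106 against 57.0 and 59.6 CPM. Its VIP-treated culture had Gpx2 at 1960 CPM in the first technical library and 753 CPM in the second, Srxn1 at 119 and 57.2 CPM, Nqo1 at 98.4 and 48.2 CPM, and Gstm1 at 865 and 614 CPM. In the other cultures Gpx2 differed by less between technical libraries, for example 896 and 884 CPM in VIP-treated mouse 1. The second library lay near the levels of the other mice for Gpx2, Nqo1 and Gclc. For Srxn1 and Gstm1 it lay within the untreated libraries of mice 1 and 2 (48.9 to 61.5 and 613 to 637 CPM). The VIP-treated libraries of mice 1, 2 and 4 were at 71.8 to 98.7 CPM for Srxn1 and 410 to 494 CPM for Gstm1. Whether the second library belongs to the labelled culture or treatment was not tested. The plot of the technical libraries by mouse shows these differences.

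**Figure D3:**
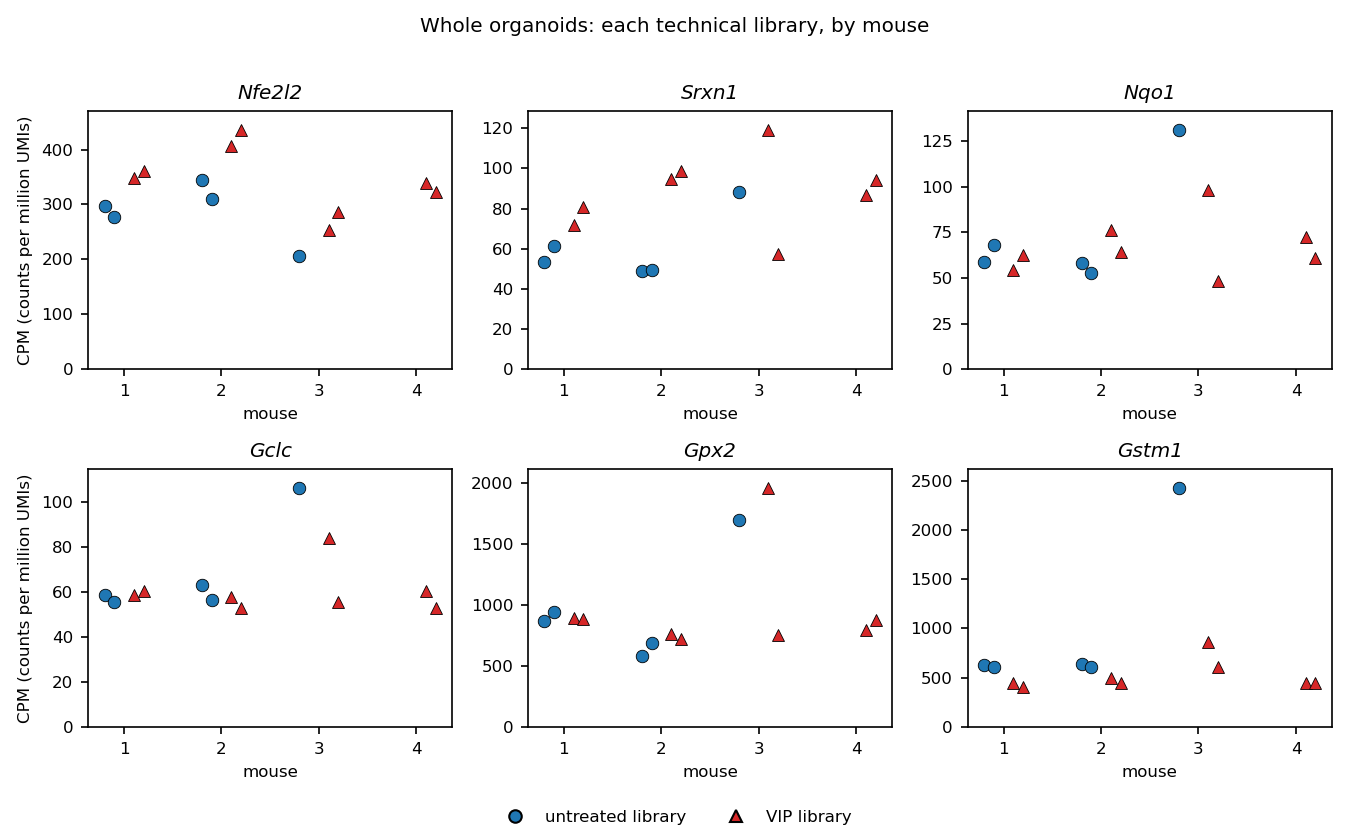
Level of 6 genes in each technical library of whole organoids, in CPM on linear axes that start at 0, by mouse. Circles are untreated and triangles VIP-treated libraries; the untreated library of mouse 3 is the highest of the untreated libraries for all shown genes except Nfe2l2, for which it is the lowest, and the technical libraries of VIP-treated mouse 3 lie at 1960 and 753 CPM for Gpx2.

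With VIP for 72 h, 1 of the 9 tested genes was higher in whole organoids and 0 were lower, and 3.64% of all 12727 genes were higher. The gene was Nfe2l2. It was at 288, 327 and 206 CPM in untreated organoids of mice 1 to 3 and at 354, 422 and 266 CPM with VIP, and at 332 CPM in VIP-treated mouse 4, which has no untreated culture and adds nothing to the paired fold change. The groups overlapped between mice, but within mice the differences were 0.32, 0.39 and 0.31 (log2 CPM). The log2 fold change was 0.34 (SE 0.08, 95% interval 0.16 to 0.52, adjusted p = 0.0283), higher in 3 of 3 mice. The size was stable, from 0.27 to 0.36 over 14 alternatives, and the call was not. Nfe2l2 passed in 8 of the 14, with adjusted p from 5.01e-04 without mouse 3 to 0.675 without the first library of VIP-treated mouse 3. It did not pass without mouse 1 (0.352), without mouse 2 (0.200), with the first technical library of each culture only (0.0546), in DESeq2 (0.221) or without the mouse as a block (0.674). With mouse 1, 2 or 3 left out only 2 pairs remain, since mouse 4 has no untreated culture. Without the first library of VIP-treated mouse 3, which leaves its doubtful second library alone, 0 of all genes passed. Without the second library of this culture Nfe2l2 passed with adjusted p = 0.00480.

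Srxn1 was also higher in 3 of 3 mice, but by unequal amounts. It was at 57.5, 49.2 and 88.4 CPM in untreated organoids and at 76.4, 96.9, 95.1 and 90.2 CPM with VIP, and the within-mouse differences were 0.43, 0.99 and 0.04 (log2 CPM). Mouse 3 was the highest without VIP and differed least. The log2 fold change of 0.48 (SE 0.16, 95% interval 0.12 to 0.85) did not pass the threshold (adjusted p = 0.158). Without mouse 3 it was 0.71 (adjusted p = 2.75e-09), without the second library of VIP-treated mouse 3 it was 0.60 (0.00355), and without the first library 0.26 (0.948). The fit without mouse 3 rests on the pairs of mice 1 and 2, which differed by 0.43 and 0.99. Its small adjusted p therefore does not show that mice agree. The Srxn1 call thus depended on the libraries of mouse 3.

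Gstm1 had the largest log2 fold change of the members in whole organoids and the widest interval. It was at 622, 625 and 2422 CPM in untreated organoids and at 428, 468, 768 and 450 CPM with VIP, lower in 3 of 3 mice. The within-mouse differences were −0.52, −0.39 and −1.72 (log2 CPM), and the log2 fold change was −0.88 (SE 0.37, 95% interval −2.08 to 0.32, adjusted p = 0.430). Without mouse 3, with only mice 1 and 2 paired, it was −0.46 (adjusted p = 1.68e-06). It was −0.99 without the first library of VIP-treated mouse 3 (0.627) and −0.81 without the second (0.291). Its paralogs Gstm2 and Gstm6 moved in the same direction, with log2 fold changes of −0.54 (adjusted p = 0.00407) and −0.56 (0.00971), and reads of these genes may be exchanged with those of Gstm1.

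The other members did not pass in whole organoids. Gpx2 was at 908, 639 and 1701 CPM untreated and at 890, 742, 1494 and 838 CPM with VIP (log2 fold change −0.01, 95% interval −0.22 to 0.20), and the fold change of Gpx2 was 0.11 without mouse 3, −0.34 without the first library of VIP-treated mouse 3 and 0.13 without the second. Txnrd1 was at 158, 159 and 135 CPM untreated and at 166, 214, 133 and 165 CPM with VIP (0.16, 95% interval −0.07 to 0.38), and it passed without mouse 3 (0.27, adjusted p = 0.0267) but not without the first (0.11, 0.952) or the second library (0.20, 0.165) of its VIP-treated culture. Nqo1 (−0.20), Gclc (−0.21), Gclm (−0.08) and Gsr (−0.11) were higher in 1 of 3 mice each, and mouse 3 had the most negative difference in all 4, from −0.41 for Gclm to −0.79 for Nqo1. Without mouse 3 the log2 fold changes were 0.13 for Nqo1, −0.00 for Gclc, 0.09 for Gclm and 0.06 for Gsr. Without the first library of VIP-treated mouse 3 they were −0.40, −0.34, −0.16 and −0.15 in the same order, and without the second −0.07, −0.13, −0.03 and −0.09, and none of these passed. Hmox1 had 8, 4 and 4 UMIs untreated and 9, 24, 21 and 8 UMIs with VIP. Of the 24 and 21 UMIs, 19 came from a single technical library in each culture. The median over the 9 genes was −0.08, against −0.00 over all genes. Goblet cell markers summed to 5458 to 6776 CPM untreated and 7792 to 9316 CPM with VIP, all 7 of them detected in every sample. In mice 1 to 3 the enterocyte markers summed to 17775, 18303 and 15602 CPM untreated and to 14741, 16368 and 13095 CPM with VIP, lower in 3 of 3 mice. The p53 targets, like Nfe2l2, were higher in 3 of 3 mice, at 463, 462 and 340 CPM untreated and 567, 712 and 405 CPM with VIP. The part of these genes in the values of the members was not tested.

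Whether VIP acts differently on whole organoids and Lgr5-EGFP+ cells at 72 h was tested over the first 2 experiments together. The difference did not pass for any of the 9 genes (0 in edgeR and in DESeq2, 1 at an unadjusted p under 0.05). Of the 10186 genes tested 0.128% passed, and 644 had an unadjusted p under 0.05. The member with the unadjusted p was Gstm1, with a log2 difference of 0.96 (SE 0.38, 95% interval 0.12 to 1.81, adjusted p = 0.736), and it includes mouse 3. For Nfe2l2 the difference was −0.25 (95% interval −0.63 to 0.13), so the rise in whole organoids was not shown to be absent from the sorted cells. The compartments were sequenced in different experiments on different strains of mice, and these cannot be told apart from the compartment. Without a test, Gpx2 was at 639 to 1701 CPM in whole organoids and at 1625 to 3138 CPM in the sorted cells of the second and the third experiment. Nfe2l2 was at 206 to 422 CPM in whole organoids, at 75.6 to 121 CPM in the sorted cells of the second experiment and at 173 to 248 CPM in those of the third, so the sorted cells of the separate experiments also differed from each other.

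The other genes of the pathway were taken from 7 lists with 99 genes, on regulators of NRF2, glutathione supply, glutathione S-transferases, the thioredoxin and peroxidase system, NADPH supply, haem and iron, and quinone and carbonyl enzymes. The count of calls by IR in VIP-treated cells was 14 of the 84 tested genes (9 higher, 5 lower), and 8.40% of all genes were called in either direction. Over the 84 genes the median log2 fold change was 0.01, against 0.00 over all genes. The quinone, carbonyl and conjugation enzymes accounted for 5 of the 9 higher genes, out of 14 tested (median 0.24). Ephx1, the microsomal epoxide hydrolase, was at 54.1, 50.0, 85.7 and 60.3 CPM without IR and at 193, 129, 181 and 240 CPM after IR (log2 fold change 1.57, SE 0.21, adjusted p = 8.32e-04). The carbonyl reductase gene Cbr3 was at 25.5, 31.3, 28.8 and 29.2 CPM without IR and at 47.4, 44.8, 55.3 and 63.0 CPM after IR (0.87, adjusted p = 4.37e-05). The aldo-keto reductase gene Akr1b8 rose from 18.0 to 21.9 CPM without IR to 35.2 to 42.4 CPM after IR (0.89, adjusted p = 3.44e-04). In these 3 genes all samples after IR were above all samples without IR.

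Of the regulators, Sqstm1, which encodes the KEAP1-binding autophagy adaptor p62, was the only called gene of 8 tested, higher after IR by 0.55 on the log2 scale in VIP-treated cells (SE 0.11, adjusted p = 4.85e-04). Of the 21 tested glutathione S-transferases, Gsta4 (0.63, SE 0.08, adjusted p = 1.51e-07) and Gsta3 (0.39, adjusted p = 0.00397) were higher and Gstt2 (−0.44, SE 0.08, adjusted p = 1.71e-04) was lower. The lower genes also included catalase (Cat, −0.49), which degrades hydrogen peroxide without glutathione, the ferritin light chain gene Ftl1 (−0.46), and Tkt and Idh1 of the NADPH supply (−0.22 and −0.25). Gsta3, Cat, Ftl1, Tkt and Idh1 were named after their values were seen, since the rule takes the 6 genes with the smallest p. All called lower genes of the lists are thus named, and not all of the higher ones. In the glutathione supply list all 7 tested genes had a positive log2 fold change (median 0.40), and 1 was called. In the thioredoxin and peroxidase list 7 were positive and 14 negative (median −0.03). Over the 84 genes 45 were positive and 39 negative, so the lists moved in both directions after IR. Of the 9 tested members, 0 were called lower.

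**Figure D4:**
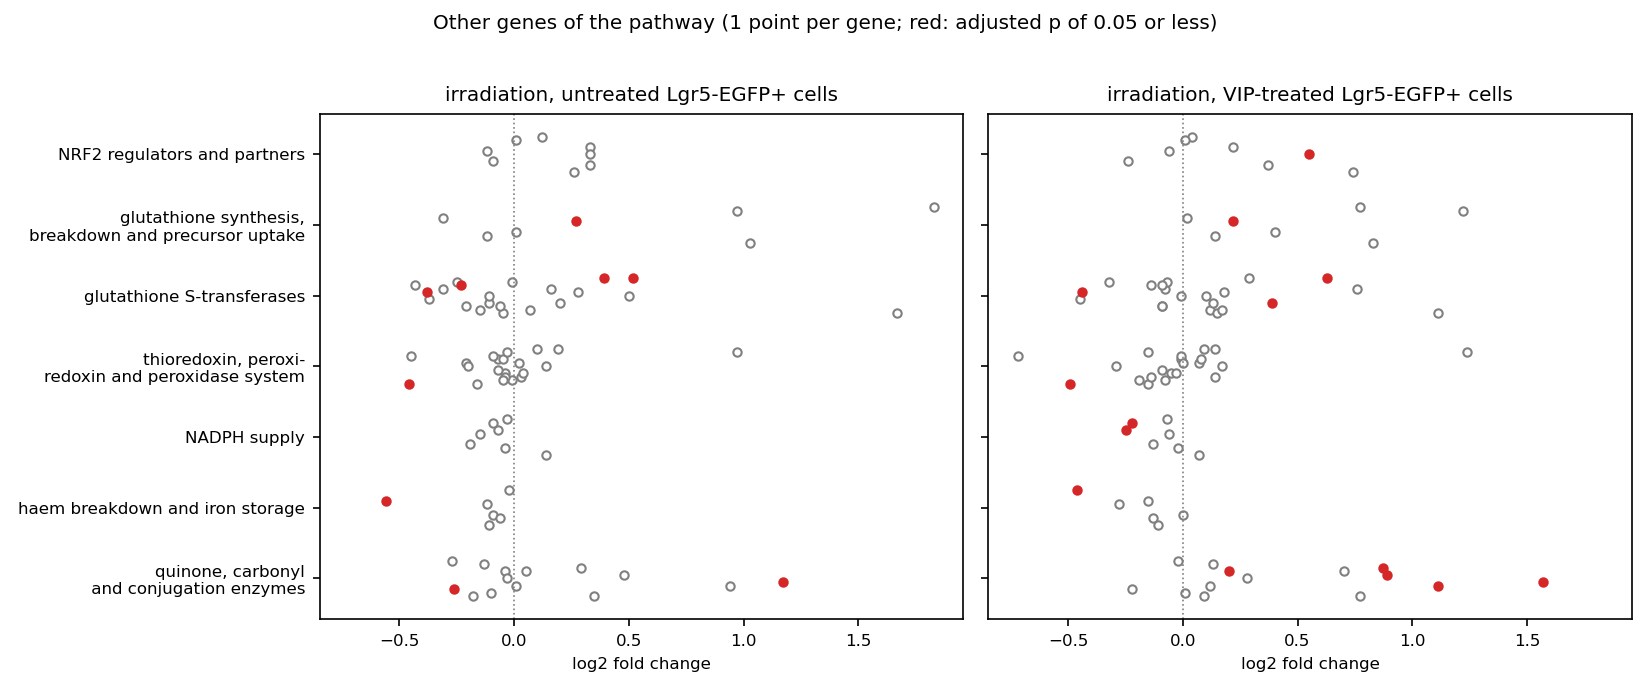
Log2 fold change after IR of the 84 tested genes of the 7 other pathway lists, in untreated (left) and VIP-treated (right) Lgr5-EGFP+ cells. Each point is 1 gene, its height within a list has no meaning, and red points have an adjusted p of 0.05 or less; 4 are higher and 5 lower on the left, and 9 are higher and 5 lower on the right.

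In untreated cells, 9 of the 84 genes passed after IR (4 higher, 5 lower), and 4.50% of all genes were called in either direction. Ephx1 was again higher, at 77.3, 88.2, 85.6 and 68.2 CPM without IR and at 148, 202, 165 and 200 CPM after IR (1.17, SE 0.20, adjusted p = 0.00671). Gsta4 (0.39, adjusted p = 0.00130) and Gstt1 (0.52, adjusted p = 0.00301) were higher, and Gstt2 (−0.38, adjusted p = 0.00301), Cat (−0.46, adjusted p = 0.0134) and the biliverdin reductase gene Blvrb (−0.56, adjusted p = 0.0144) were lower. With a mouse left out, the call of Gstt1 was lost without mouse 2 (0.0724) or 3 (0.109), that of Gstt2 without mouse 2 (0.0506), that of Cat without mouse 1, 2 or 4 (the highest without mouse 4, 0.190), and that of Blvrb without mouse 1 (0.0534), 2 (0.191) or 3 (0.0630), while Ephx1 and Gsta4 passed in each case. The interaction of VIP and IR passed for 0 of the 84 genes (10 at an unadjusted p under 0.05, against 610 of all 9976 genes).

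With VIP, fewer genes of these lists passed in the sorted cells. In non-irradiated cells at 48 h, 2 of 84 passed, where 1.10% of all genes did, between groups whose stem, Paneth, enterocyte and p53 target sums did not overlap. Ftl1 was at 69.1, 99.9, 93.4 and 108 CPM without and at 137, 128, 131 and 132 CPM with VIP (0.51, SE 0.11, adjusted p = 0.0116), and the groups did not overlap. Mgst2, a microsomal glutathione S-transferase, was at 182, 149, 161 and 180 CPM without and at 130, 123, 134 and 130 CPM with VIP (−0.38, SE 0.08, adjusted p = 0.0125), also without overlap. Ftl1 did not pass without mouse 1 (0.36, adjusted p = 0.0887) or 3 (0.52, 0.0861), and Mgst2 did not pass without mouse 1 (0.0573), 3 (0.0511) or 4 (0.143). In irradiated cells 0 of 84 passed (10 at an unadjusted p under 0.05, against 556 of all 9976 genes). In the second experiment 0 of 68 passed (6 unadjusted, against 374 of all 6778 genes).

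In whole organoids 10 of the 92 tested genes passed with VIP, 5 higher and 5 lower, and 4.69% of all genes were called in either direction. Gstk1, a mitochondrial and peroxisomal glutathione S-transferase, was at 15.4, 16.5 and 24.2 CPM untreated and at 38.3, 38.3, 56.2 and 27.9 CPM with VIP (1.24, SE 0.13, adjusted p = 3.03e-05). Slc40a1, the iron exporter ferroportin, was at 6.24, 4.49 and 2.42 CPM untreated and at 22.7, 27.6, 4.11 and 21.2 CPM with VIP (2.03, SE 0.26, adjusted p = 4.19e-04). Mouse 3 again had the smallest rise of Slc40a1. Mgst1 (−0.53, adjusted p = 0.00394) and Ephx1 (−0.51, adjusted p = 0.00858) were lower together with Gstm2 and Gstm6. Ephx1 was therefore lower with VIP in whole organoids and higher after IR in the sorted cells. Without the first library of VIP-treated mouse 3 none of these calls held, since 0 genes passed in that fit. That fit holds only the second library of this culture, whose identity is in doubt. Ephx1 (0.0566) and Gstm6 (0.134) did not pass without mouse 1, nor did Ephx1 without the second library of VIP-treated mouse 3 (0.144). Over all 14 alternatives Ephx1 passed in 9 and Gstm6 in 10, so not every failure is named here.

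To describe which genes followed the called members most closely, each was correlated with the 9976 genes over the 16 samples of the third experiment, in log2 CPM with the mean of each mouse removed. The samples share mice and 4 groups, and the correlations are given as a description. Nfe2l2 was closest to Siva1, Bax and Commd3 (r = 0.96 each). Txnrd1 was closest to Mdm4, Myh9 (r = 0.95 each) and Trim44 (0.94). Srxn1 was closest to Gsn, F3 (0.93 each) and Cmas (0.92). Gpx2 was closest to 2900093K20Rik, Gsta4 and Traf4 (0.95 each). Gclc had no gene as close, with Mien1 at 0.89, Trio at 0.88 and Jup at 0.86.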

How the data were processed

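RNA was measured in 31 samples (37 libraries) of 3 experiments. The authors made 3′ libraries with UMIs, counted them per gene with the Drop-seq pipeline and GENCODE on GRCm38, and deposited raw counts, whole numbers without normalization. Every column was assigned to a sample by its label (0 without a sample). Technical libraries were summed, and samples of a mouse were paired by its number. As a check, deviations from the group means were correlated across genes between the groups of a comparison. The same mouse gave 0.27 to 0.63 in whole organoids, 0.03 to 0.21 in the second experiment and −0.03 to 0.16 in the third. Different mice gave −0.54 to 0.33, −0.14 to 0.15 and −0.10 to 0.05 in the same order. These ranges overlap, so the check does not settle the pairing, which rests on the labels.

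Counts were tested in R 4.3.3 with edgeR 4.0.16: filterByExpr by group, TMM, a robust quasi-likelihood fit with the mouse as a block, Benjamini-Hochberg adjustment over all genes tested and a threshold of 0.05. The 4 groups of the third experiment shared a fit. Fold changes are on the log2 scale, SE and 95% intervals come from the F statistic, and within-mouse differences are of log2 CPM with a prior count of 2. DESeq2 1.42.0 was an alternative, as were RLE factors, library size alone, other filters, no block, no mitochondrial genes, technical libraries left out, fewer groups in a fit, and each mouse left out. Leaving out the first library of VIP-treated mouse 3 was chosen after the data were examined. The scripts were tested on simulated data. The 10 genes are named in every comparison, and of the other lists those past the threshold, at most 6 per comparison by p, and for called genes of the third experiment the 3 most correlated genes. The members and lists were chosen with earlier results of these data known. With the mouse as a block, p-values rest on the spread left after each mouse's level is removed, shared over the groups of a fit.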

Additional observations from a re-analysis of the deposited data

Results flagged for a closer look

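In VIP-treated whole organoids, Gstm1 was at 768 CPM in mouse 3 and at 428 to 468 CPM in the other 3 mice, a gap of 0.882 of the group's range. It was the single outlying sample in 70 groups of members tested. Chance gives about 1 in 20 groups, so 1 flag in 70 is not more than chance gives. The value includes the second library of VIP-treated mouse 3, whose identity is in doubt.

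Nfe2l2 had opposite signs with VIP in 2 experiments. Every mouse was higher with VIP in whole organoids (log2 fold change 0.34, 72 h), and every mouse was lower in non-irradiated Lgr5-EGFP+ cells (−0.12, 48 h). The duration, the strain and the compartment differ between these experiments, and the difference was not tested. The fold change of −0.12 did not pass the threshold (interval −0.27 to 0.04, edgeR adjusted p = 0.591). With VIP, Nfe2l2 was at 0.09 in the Lgr5-EGFP+ cells of the second experiment (72 h, interval −0.27 to 0.45). In irradiated cells it was at −0.02 (interval −0.17 to 0.13). How often chance gives such opposite signs among the members was not tested, so a reversal was not shown.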

How the results depend on the processing

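The 5 genes called by IR in VIP-treated cells and Nfe2l2 in whole organoids kept their direction in 74 of 74 alternatives run for them, and 12 of these lost the threshold. Srxn1, Txnrd1 and Gpx2 passed in 12 of 12 alternatives after IR with VIP, Nfe2l2 in 10 and Gclc in 8. The number of members called by VIP in whole organoids (1) was 0 with DESeq2, 0 without the mouse as a block, 0 without the first library of VIP-treated mouse 3, 2 without its second library, 2 with all genes of any count, and 0 to 4 when a mouse was left out (4 without mouse 3). Leaving out a mouse leaves fewer samples in the fit, and without mouse 3 only 2 pairs remain in whole organoids. After IR in untreated cells (0) it was 2 with at least 10 counts in every sample and 0 to 3 with a mouse left out, after IR in VIP-treated cells (5) 3 to 4 with a mouse left out and 7 with at least 10 counts in every sample (Gclm and Nqo1 added), with VIP in irradiated cells (0) 1 in the fit of 8 samples, and for the compartment (0) 1 with all genes of any count. The replicate block (the mouse number, the same mouse by label) changed no other call of a member; without it the 6 named pathway genes of whole organoids, Ftl1 with VIP and Gstt1 after IR in untreated cells also lost the threshold. Over all genes, whole organoids had 597 calls, 300 with DESeq2, 101 without the block, 953 with all genes of any count, 1355 without the second library of VIP-treated mouse 3 and 0 without the first. Over the 14 alternatives for whole organoids the calls ranged from 0 to 1699. After IR they ranged from 192 to 698 in untreated cells (449 without any change) and from 471 to 857 in VIP-treated cells (838). With VIP in irradiated cells they ranged from 7 to 53 (19), and for the compartment from 0 to 50 (13). The counts of members are to be read beside these.

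Signs changed in 40 of the 796 alternatives for members that were past no threshold, and the cause was not tested. With VIP in Lgr5-EGFP+ cells at 72 h, Gclc was −0.00 with RLE factors and with DESeq2 and −0.06 without the block. With library size alone, Gclc with VIP in non-irradiated cells was 0.00 and Nfe2l2 with VIP in irradiated cells 0.00. With all genes of any count, Gstm1 after IR in untreated cells was −0.01. Txnrd1 for the compartment was −0.01 with at least 10 counts, −0.01 without the block and −0.03 without the second library of VIP-treated mouse 3, and Gpx2 with VIP in whole organoids was 0.13 without that library and 0.23 with the first technical library of each culture. With a mouse left out, the range in whole organoids was −0.46 to 0.13 for Nqo1, −0.21 to 0.09 for Gclm, −0.26 to 0.06 for Gsr and −0.13 to 0.11 for Gpx2, positive without mouse 3. With VIP in Lgr5-EGFP+ cells at 72 h it was −0.00 to 0.19 for Nfe2l2, −0.20 to 0.32 for Nqo1, −0.05 to 0.09 for Gclc, −0.29 to 0.07 for Srxn1 and −0.17 to 0.27 for Gstm1. In non-irradiated cells it was −0.07 to 0.01 for Nqo1, −0.11 to 0.13 for Gclc, −0.11 to 0.09 for Gsr and −0.17 to 0.20 for Srxn1. In irradiated cells it was −0.05 to 0.04 for Nfe2l2, −0.02 to 0.13 for Gclm, −0.14 to 0.00 for Gsr and −0.27 to 0.10 for Gstm1. After IR in untreated cells it was −0.02 to 0.08 for Gsr and −0.18 to 0.12 for Gstm1, and in VIP-treated cells −0.13 to 0.04 for Gsr. For the interaction of VIP and IR it was −0.21 to 0.06 for Gsr and −0.03 to 0.33 for Gstm1, and for the compartment −0.04 to 0.36 for Gclc, −0.04 to 0.39 for Gsr and −0.24 to 0.25 for Txnrd1.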
